A study of Homo sapiens with 13 samples.

Results

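The chaperone genes of the HSP70, HSP90, HSP60, HSP10, CCT and J-domain (DNAJ) families were examined for peaks of PTBP1, a splicing regulator, and RUNX1, a hematopoietic transcription factor. The rule for membership was the gene symbol and used no peak values, although the families were picked with earlier results of these data known, and 70 of the 20033 protein-coding genes on chromosomes 1 to 22, X and Y in GENCODE version 44 matched. They comprised 15 HSP70 genes (the HSPA genes and HSPH1), 3 HSP90 genes, HSPD1 and HSPE1, 8 genes of the CCT complex, and 4 DNAJA, 12 DNAJB and 26 DNAJC genes.

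MOLM-13 is an established cell line from an acute myeloid leukemia, and all 13 libraries of the series came from it. Antibodies to PTBP1 (Thermo) and RUNX1 (Abcam) were each used in 2 biological replicates of CUT&Tag, where a tethered transposase tags DNA near the bound protein, and in 2 of CUT&RUN, where a tethered nuclease cuts it. The supplier of the RUNX1 antibody is given as Abcam by the labels and as Invitrogen by the study's antibody list, and the conflict could not be settled here. IgG (CST) served as control in 1 CUT&Tag and 2 CUT&RUN libraries, and H3K27me3 (CST) was profiled in 2 CUT&RUN libraries. The measurements were 1 list of 9370 PTBP1 peaks and 1 list of 7688 RUNX1 peaks (hg38 build). Replicates could not be separated, so their spread is not given and no test was run. Every interval of a fold or a share is a 95% interval for counting error only, exact Poisson for the fragments at a summit and Wilson for a share of genes. The 95% interval of a median came from the ranked values by the binomial distribution. Fold enrichment is the authors' ratio of the fragments over a summit, plus 1, to the background there, plus 1. That background was usually 0.720 fragments for PTBP1 and 0.330 for RUNX1, so folds were not compared between the lists.

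Chaperones bind unfolded proteins and help them to fold, to assemble or to be degraded. HSP70 proteins do so in a cycle of ATP hydrolysis that J-domain proteins stimulate and that the HSP110 members of the family reset, HSP90 proteins act later on near-native clients, and the HSP60 and CCT proteins form closed chambers. Many of these genes are switched on by heat shock factors, which bind inverted repeats of a short GAA unit (the heat shock element), whereas others are transcribed at all times in growing cells such as leukemia cells.

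The DNA in front of the genes the results turn on is shown first, because the strongest PTBP1 peak of the set lay at HSPA1B while its near-copy HSPA1A had none. HSPA1A and HSPA1B encode nearly the same stress-inducible HSP70 protein and lie in tandem on the plus strand of chromosome 6. The sequences below, from the hg38 genome, hold the 150 bases that end at the base before each start of transcription, at chr6:31827588-31827737 for HSPA1B and chr6:31815393-31815542 for HSPA1A. Capitals mark a pair of inverted heat shock element units, spelled GAANNTTC or TTCNNGAA and sought on both strands (each reads the same on either strand).
HSPA1B: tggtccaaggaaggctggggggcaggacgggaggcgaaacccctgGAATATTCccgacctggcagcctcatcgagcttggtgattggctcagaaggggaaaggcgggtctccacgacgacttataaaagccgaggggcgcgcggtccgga
HSPA1A: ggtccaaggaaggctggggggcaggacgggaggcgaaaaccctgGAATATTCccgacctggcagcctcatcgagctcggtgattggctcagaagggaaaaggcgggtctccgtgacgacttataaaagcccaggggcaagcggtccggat

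Each of the 2 sequences carried 1 such pair, starting 105 (HSPA1B) and 106 (HSPA1A) bases before the start, and aligned end to end over 250 bases upstream they were identical at 235 positions, with 14 mismatches and 2 gap positions (93.6%). Over 1000 bases upstream the identity was 62.1%, with 279 mismatches and 124 gap positions, and the PTBP1 peak of HSPA1B reached beyond 1000 bases upstream. The PTBP1 peak of HSPA1B (chromosome 6, 31826410 to 31828008) had a fold enrichment of 76.2 (interval 63.7 to 90.3) from 130 fragments, with its summit 218 bases upstream of the gene. The RUNX1 peak there (31826973 to 31828033) had 36.1 (26.7 to 47.7), and its summit lay 4 bases from that of PTBP1. A noncoding gene without a symbol starts 295 bases from HSPA1B on the other strand, so neither peak can be assigned to HSPA1B alone. The nearest peaks to the start of HSPA1A were 8489 bases away in the PTBP1 list and 8541 bases away in the RUNX1 list. Since reads that map to more than 1 place were removed by the authors' mapping quality filter, the uniqueness of both windows was measured. Of the stretches of 100 bases in the 1000 bases upstream, 0 of 901 recurred elsewhere in the genome for either gene, whereas 76.9% (HSPA1A) and 77.1% (HSPA1B) recurred downstream of the start. The summits at HSPA1B therefore lay where no such stretch was repeated exactly on these chromosomes. Inexact copies and other sequences of the build were not searched, so how many reads the filter removed at HSPA1A is not known. HSPA1B also had a weaker PTBP1 peak (31829788 to 31830110) with a fold enrichment of 11.0 (6.78 to 17.1) whose summit was in the 3′ UTR of its only exon.

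The next group of sequences shows members with peaks of both lists and paired heat shock element units in front of the canonical transcript, the transcript that GENCODE marks as representative of a gene. DNAJB1 (chr19:14518408-14518547), which encodes the main cytosolic J-domain partner of HSP70, HSPH1 (chr13:31161928-31162054), which encodes an HSP110 protein, and HSP90AA1 (chr14:102087045-102087194), which encodes the inducible cytosolic HSP90, are read on the minus strand. They end 11, 24 and 1 bases before the canonical start, because annotated UTRs of other transcripts were left out. Capitals have the same meaning, and units that overlap are run together. A pair lay within 50 bases of a RUNX1 summit of DNAJB1 and of HSP90AA1, but of no PTBP1 summit of these genes. The summits of HSPH1 lay 260 (PTBP1) and 437 (RUNX1) bases upstream of its canonical start, without a pair within 50 bases.
DNAJB1: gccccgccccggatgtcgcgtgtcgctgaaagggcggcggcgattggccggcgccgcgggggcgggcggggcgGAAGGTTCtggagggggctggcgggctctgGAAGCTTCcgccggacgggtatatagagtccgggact
HSPH1: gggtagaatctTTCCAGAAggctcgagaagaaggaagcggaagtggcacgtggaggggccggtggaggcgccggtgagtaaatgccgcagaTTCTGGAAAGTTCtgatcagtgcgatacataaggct
HSP90AA1: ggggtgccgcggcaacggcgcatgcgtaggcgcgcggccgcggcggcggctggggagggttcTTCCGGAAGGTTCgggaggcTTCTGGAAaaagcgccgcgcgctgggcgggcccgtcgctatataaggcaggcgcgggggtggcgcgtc

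DNAJC21 is shown because it had the highest RUNX1 fold enrichment of the set, and it encodes a J-domain protein of ribosome maturation. Its sequence (chr5:34929409-34929558, plus strand) ends at the base before the start, and capitals mark the core CCGGAA of ETS factor sites, here on the opposite strand. For TCP1 and CCT3, subunits of the CCT chamber, only the short site nearest to the PTBP1 summit is shown, on the minus strand. Capitals mark a heat shock element pair for TCP1 (chr6:159789868-159789895) and the RUNX motif TGCGGT for CCT3 (chr1:156338589-156338614). The capitals of TCP1 began 22 bases from the PTBP1 and 40 bases from the RUNX1 summit, and those of CCT3 were 35 bases from the summit common to both lists.
DNAJC21: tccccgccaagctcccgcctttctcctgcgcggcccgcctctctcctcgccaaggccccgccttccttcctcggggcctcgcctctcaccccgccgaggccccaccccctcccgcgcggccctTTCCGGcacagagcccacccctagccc
TCP1: ttacaaccttTTCTAGAAggcactagaa
CCT3: cgacctcaccTGCGGTgttaaccgaa

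As a set, the chaperone genes had a PTBP1 peak within 1000 bases of the transcription start site (TSS, here the 5′ end of the gene) at 23 of 70 genes, a share of 32.9% (23.0 to 44.5), beside 26.4% of all protein-coding genes. RUNX1 peaks lay at 20 genes, 28.6% (19.3 to 40.1), beside 21.3%. Both were present at 16 genes, 22.9% (14.6 to 34.0), beside 17.3%. All 3 of the members' intervals held the share of all coding genes, so by this definition of a TSS peak the set could not be told from the background. In 3 of 34 alternatives the interval lay above that share. These were RUNX1 without genes that share a divergent promoter (29.7%, 17.5 to 45.8, beside 15.6%), RUNX1 at the canonical start (32.9%, 23.0 to 44.5, beside 22.4%), and both peaks with summits at most 200 bases apart (22.9%, 14.6 to 34.0, beside 13.8%). In the first, HSPD1 and HSPE1 were kept although they share a promoter. In the second, their single RUNX1 peak counted for both genes. None of these differences was tested. PTBP1 alone was found at 7 members, RUNX1 alone at 4, and 43 had neither. Of the members with a PTBP1 peak 69.6% also had a RUNX1 peak (all coding genes 65.7%), and of those with a RUNX1 peak 80.0% also had a PTBP1 peak (81.3%). A peak within the gene but away from the TSS window was present at 8 members, 11.4% (5.91 to 21.0), beside 17.2% of all coding genes. Median gene lengths were 22120 and 27471 bases, and their part in that share was not tested. In all, 38 members had no peak of either list anywhere in the gene or its TSS window.

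**Figure D1:**
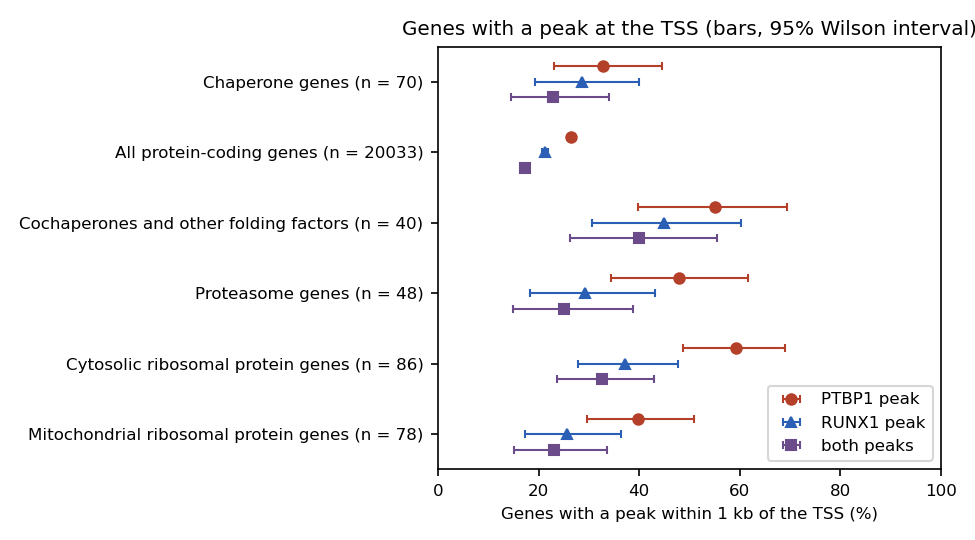
Share of genes (%) with a PTBP1 peak (circles), a RUNX1 peak (triangles) or both (squares) within 1 kb of the TSS, with 95% Wilson intervals, for the chaperone genes, all protein-coding genes and 4 other gene groups. The chaperone genes lay at 32.9%, 28.6% and 22.9%, and the intervals of all 3 reached the values of all coding genes.

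Other large housekeeping families stood side by side with the chaperones as follows. PTBP1 peaks lay at 23 of 48 proteasome genes (47.9%), 51 of 86 cytosolic ribosomal protein genes (59.3%, 48.7 to 69.1) and 31 of 78 mitochondrial ribosomal protein genes (39.7%). Of all coding genes 26.4% had a PTBP1 peak. RUNX1 peaks lay at 29.2%, 37.2% and 25.6% of these families, beside 21.3% of all coding genes. A divergent promoter was present at 37.5%, 40.7% and 42.3% of them, beside 47.1% of the chaperones and 26.6% of all coding genes. The PTBP1 interval of the cytosolic ribosomal protein genes did not overlap that of the chaperones, while those of the other 2 families did. The difference was not tested.

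The HSP70 family had PTBP1 peaks at 5 of its 15 genes (33.3%, 15.2 to 58.3, beside 26.4% of all coding genes). RUNX1 peaks lay at 6 (40%, 19.8 to 64.3, beside 21.3%) and both at 4 (26.7%, 10.9 to 52.0, beside 17.3%). All 3 intervals held the background. Besides HSPA1B the genes with both peaks were HSPA9, the mitochondrial HSP70, HSPH1, and HSPA5, the HSP70 of the endoplasmic reticulum. At HSPA9 (chromosome 5, 138575336 to 138576031) the PTBP1 fold enrichment was 33.7 (25.7 to 43.5), and the RUNX1 peak at 138575143 to 138575911 had 32.3 (23.5 to 43.4). At HSPH1 (chromosome 13, 31161929 to 31162481) the values were 22.1 (15.7 to 30.2) and 13.5 (8.20 to 21.2). At HSPA5 (chromosome 9, 125241174 to 125242054), which shares its promoter with the noncoding gene HSPA5-DT, they were 15.7 (10.5 to 22.7) and 14.3 (8.77 to 22.1). Within the PTBP1 list the interval of HSPA1B stood above those of the other 3 genes, and the intervals of HSPA9 and HSPH1 overlapped, as did those of HSPH1 and HSPA5.

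The HSP110 genes, whose proteins exchange the nucleotide of HSP70, differed in which list called them. HSPA4 had a PTBP1 peak only, with a fold enrichment of 10.5 (6.34 to 16.4) and its summit in the 5′ UTR. HSPA4L had a RUNX1 peak only, with 20.3 (13.5 to 29.4), 78 bases upstream of its canonical start. HSPH1 had both. HSPA13, a member of the endoplasmic reticulum, also had a RUNX1 peak only, with 10.5 (5.96 to 17.5). A gene with a peak in a single list may carry fragments of the other target below the calling threshold, which the lists do not show.

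HSPA8, the constitutive HSP70 of the cytosol, had no peak in either list, and its nearest peaks were 345379 (PTBP1) and 180075 (RUNX1) bases from the 5′ end of the gene. HSPA1A, HSPA1L, HSPA6, HSPA12A, HSPA12B and HSPA14 had none either. HSPA6 is the strictly heat-inducible HSP70, HSPA1L is a testis gene that starts 260 bases from HSPA1A on the other strand, and HSPA12A and HSPA12B are distant relatives. HSPA2, another testis gene, had no peak at the 5′ end of the gene but a PTBP1 peak of 8.14 (4.61 to 13.5) with its summit 112 bases upstream of its canonical start. The windows of HSPA1L and HSPA6 held repeated stretches of 100 bases at 22.8% and 22.4% of positions, which can lower the number of reads kept.

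All 3 HSP90 genes had peaks of both lists at the TSS (interval 43.9% to 100%), beside 17.3% of all coding genes. The family has 3 genes only, and the difference was not tested. HSP90AB1, the constitutive cytosolic HSP90, had a PTBP1 fold enrichment of 38.9 (30.3 to 49.4; chromosome 6, 44245899 to 44248188) and a RUNX1 fold enrichment of 31.6 (22.9 to 42.6). Its summits lay 727 and 888 bases inside the annotated gene but 208 and 47 bases upstream of the canonical transcript. HSP90B1, the HSP90 of the endoplasmic reticulum (also known as GRP94), had 24.4 (17.7 to 32.9; chromosome 12, 103929542 to 103930341) and 29.3 (21.0 to 40.0), and TTC41P and MIR3652 start within 1000 bases of it. HSP90AA1 is annotated with a 5′ end 52655 bases from its canonical start and had peaks at both places. At the 5′ end of the gene, which lies beside WDR20 on the other strand, the values were 14.5 (9.52 to 21.3) and 9.02 (4.88 to 15.6). At the canonical start (chromosome 14, 102086630 to 102087685) they were 13.4 (8.60 to 19.9) for PTBP1 and 20.3 (13.5 to 29.4) for RUNX1, with the RUNX1 summit 28 bases upstream. The intervals of the 2 places overlapped in each list.

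The mitochondrial chaperonin HSPD1 (HSP60) and its lid HSPE1 (HSP10) are transcribed in opposite directions from a shared promoter on chromosome 2. A single PTBP1 peak (197499846 to 197500440) with a fold enrichment of 33.1 (25.2 to 42.9) and a single RUNX1 peak (197499469 to 197500432) with 27.1 (19.1 to 37.4) lay there, with summits 1 base apart. They were counted at the TSS of HSPE1, 127 bases upstream of its 5′ end. For HSPD1 they fell in the gene body, because a longer annotated transcript starts 16897 bases before its canonical start, from which the PTBP1 summit was 173 bases upstream. HSPE1-MOB4, a readthrough gene, starts 273 bases from HSPE1.

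Of the 8 genes for subunits of CCT, the cytosolic chamber that folds actin and tubulin, TCP1, CCT7 and CCT2 had both peaks at the TSS. The interval of that share (37.5%, 13.7 to 69.4) held the 17.3% of all coding genes. TCP1 had a PTBP1 fold enrichment of 42.4 (33.3 to 53.3; chromosome 6, 159789032 to 159790800) and a RUNX1 fold enrichment of 43.6 (33.2 to 56.3), at a promoter shared with MRPL18. CCT7 had 25.6 (18.7 to 34.3; chromosome 2, 73233135 to 73234639) and 21.1 (14.1 to 30.3), at a promoter shared with PRADC1. CCT2 was near the lower end of both lists, with 8.14 (4.61 to 13.5) and 9.77 (5.41 to 16.5) from 13 and 12 fragments, and MIR3913-1 and MIR3913-2 start beside it. CCT3 had peaks with summits at the same base, 38.9 (30.3 to 49.4; chromosome 1, 156337989 to 156338994) and 32.3 (23.5 to 43.4), in its gene body but 272 bases upstream of its canonical start. CCT4, CCT5, CCT6A and CCT8 had none, although CCT4, CCT5 and CCT6A also start within 100 bases of a coding gene on the other strand (COMMD1, ATPSCKMT and PSPH). Peaks of both lists within 1000 bases of the canonical start were thus present at 4 of the 8 genes, beside 18.2% of all coding genes. That difference was not tested.

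**Figure D2:**
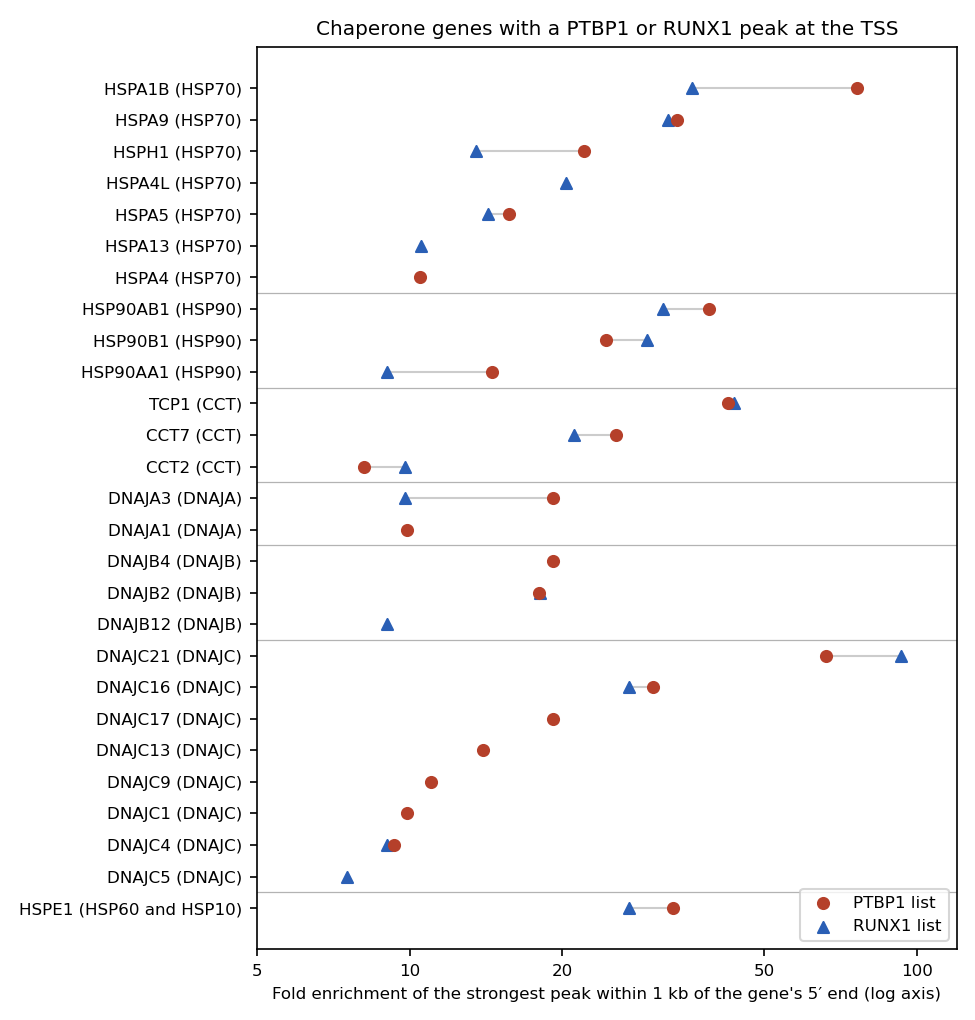
Fold enrichment (log axis) of the strongest PTBP1 peak (red circles) and RUNX1 peak (blue triangles) within 1 kb of the 5′ end of each chaperone gene that had such a peak, by family, with a grey line joining the lists. HSPA1B (76.2) and DNAJC21 (66.3) were highest in the PTBP1 list and DNAJC21 (93.2) in the RUNX1 list.

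The DNAJ genes encode the J-domain proteins that recruit HSP70 to its tasks, and 11 of the 42 had a PTBP1 peak at the TSS (26.2%, beside 26.4% of all coding genes), 7 a RUNX1 peak (16.7%, beside 21.3%) and 5 both (11.9%, beside 17.3%). The intervals of these shares (15.3 to 41.1, 8.32 to 30.6 and 5.19 to 25) held the background. DNAJC21 had the highest RUNX1 fold enrichment of the 70 genes, 93.2 (77.6 to 111), and a PTBP1 fold enrichment of 66.3 (54.7 to 79.6; chromosome 5, 34929183 to 34930256). Both summits were at the same base, 9 bases upstream of the gene. DNAJC16, which shares its promoter with CASP9, came next with 30.2 (22.7 to 39.6) and 27.1 (19.1 to 37.4), again with a common summit. DNAJA3, a mitochondrial J-domain protein beside CORO7, had 19.2 and 9.77, DNAJB2 had 18.0 in each list, and DNAJC4 had 9.30 and 9.02. DNAJB4 (beside FUBP1 and GIPC2) and DNAJC17 (beside ZFYVE19) had PTBP1 peaks of 19.2 each and DNAJC13, an endosomal protein, of 14.0, all in the upper part of the PTBP1 list and with no RUNX1 peak. To account for the rest, PTBP1 peaks of 9.88 to 11.0 were also found alone at DNAJA1 (beside APTX), DNAJC1 and DNAJC9 (beside DNAJC9-AS1), and RUNX1 peaks alone at DNAJB12 (9.02) and DNAJC5 (7.52, in intron 1). The peak of DNAJC5 had 9 fragments at its summit, 1257 bases from the start, and only its edge, 949 bases away, entered the window.

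DNAJB1 had no peak at the 5′ end of the gene but the strongest PTBP1 gene-body peaks among the members. A PTBP1 peak of 62.2 (51.0 to 75.1; chromosome 19, 14517794 to 14519035) and a RUNX1 peak of 19.5 (12.9 to 28.5) had their summits 240 and 26 bases upstream of the canonical start, which lies 41994 bases from the 5′ end of the gene. A second pair of 51.2 (41.1 to 63.0; 14528863 to 14530060) and 18.8 (12.3 to 27.6) lay 11021 and 11082 bases upstream of the same start. Starts of other genes were not sought at this second pair, so it cannot be assigned to DNAJB1. The remaining gene-body peaks of DNAJ genes were a PTBP1 peak of 15.1 at DNAJC7, 2524 bases upstream of its canonical start, and a RUNX1 peak of 10.5 in intron 8 of DNAJB12.

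No peak of either list was found at DNAJA2, DNAJA4, DNAJB5, DNAJB6, DNAJB7, DNAJB8, DNAJB9, DNAJB11, DNAJB13, DNAJB14, DNAJC2, DNAJC3, DNAJC6, DNAJC8, DNAJC10, DNAJC11, DNAJC12, DNAJC14, DNAJC15, DNAJC18, DNAJC19, DNAJC22, DNAJC24, DNAJC25, DNAJC27, DNAJC28 and DNAJC30. Over all 38 members without a peak, the nearest PTBP1 peak was between 3624 and 4303178 bases from the 5′ end of the gene (median 52039), so none of these genes was near the limit of the window. By place of action, a grouping made after the peaks were seen, both peaks lay at 2 of 10 genes of the endoplasmic reticulum (interval 5.67% to 51.0%), 3 of 8 mitochondrial genes (13.7% to 69.4%) and 0 of 5 germ cell genes (0% to 43.4%), beside 17.3% of all coding genes, which all 3 intervals held. The germ cell genes were DNAJB7, DNAJB8, DNAJB13, HSPA1L and HSPA2.

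**Figure D3:**
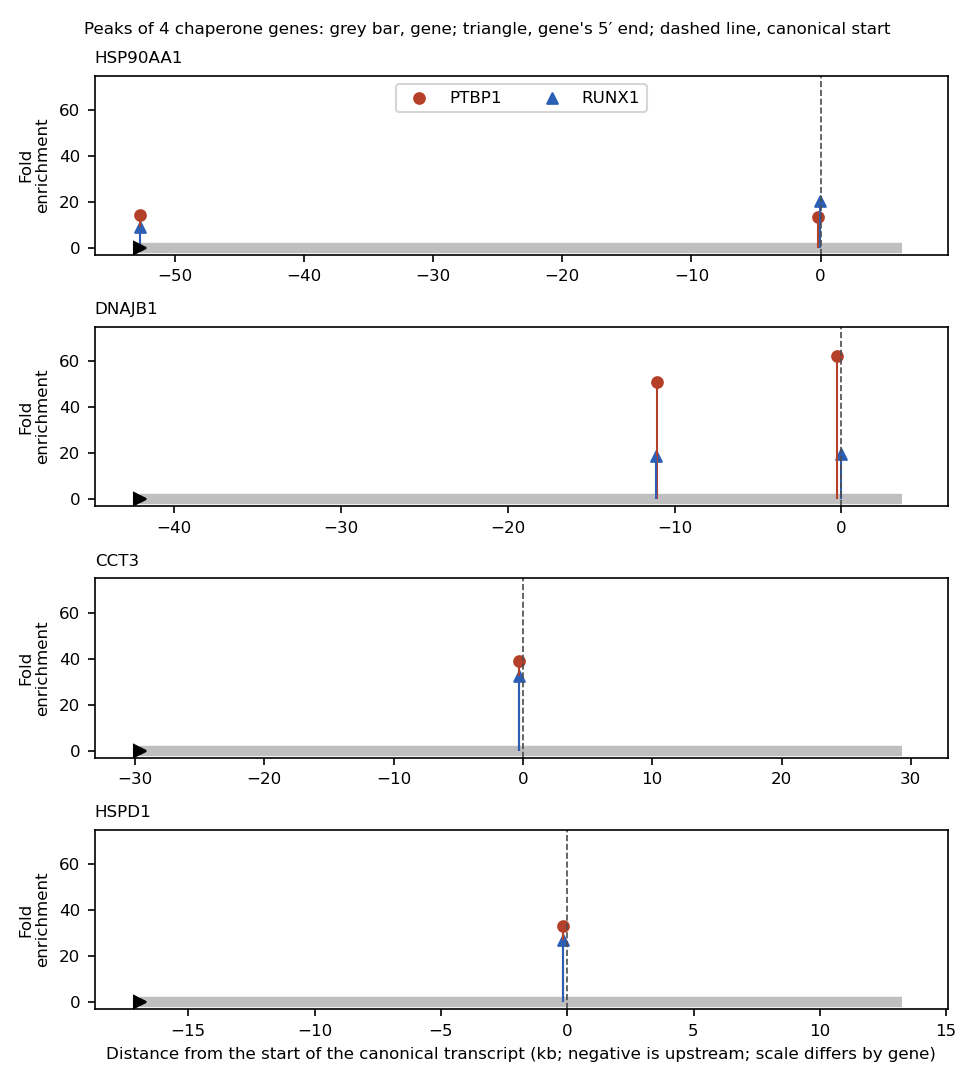
Peaks of HSP90AA1, DNAJB1, CCT3 and HSPD1, drawn as fold enrichment against distance in kb from the canonical start (dashed line), with PTBP1 in red circles, RUNX1 in blue triangles, the gene as a grey bar and its 5′ end as a black triangle. In all 4 genes a peak of each list lay at most 272 bases from the canonical start, and only HSP90AA1 also had peaks at the 5′ end of the gene.

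The choice of start mattered for several members. The canonical start lay over 1000 bases from the 5′ end of the gene in 14 members (20%) and in 16.6% of all coding genes. With the canonical start in place of the 5′ end, an alternative added after seeing the data, DNAJB1, CCT3 and HSPD1 gained both peaks, HSPA2 gained a PTBP1 peak and DNAJB4 lost its own. PTBP1 peaks then lay at 26 members (37.1%, 26.8 to 48.9, beside 27.5% of all coding genes), RUNX1 peaks at 23 (32.9%, 23.0 to 44.5, beside 22.4%) and both at 19 (27.1%, 18.1 to 38.5, beside 18.2%). The RUNX1 interval lay above the share of all coding genes and the other intervals held it. In these counts the single RUNX1 peak between HSPD1 and HSPE1 stood for both genes, as did the PTBP1 peak there. Peaks shared by other coding genes were counted the same way, and the interval without such repeats was not computed.

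The height of the members' peaks was set beside that of other coding genes with a peak. The median fold enrichment of the strongest peak at the TSS was 19.2 for PTBP1 (14.0 to 30.2), beside 15.7 for all coding genes with a peak. For RUNX1 it was 19.2 (9.77 to 29.3), beside 15.8. Both intervals held the value of all coding genes. In the PTBP1 list 13 of 23 members with a peak (56.5%) had it in the top 25% of the whole list by fold enrichment, beside 39.6% of coding genes with a peak. In the RUNX1 list 8 of 20 did (40%, beside 27.7%). The bottom 25% held 2 of the 23 PTBP1 peaks and 7 of the 20 RUNX1 peaks. The 30 PTBP1 and 25 RUNX1 peaks of the members had a median of 32 and 25 fragments at the summit, and 0 of them lay on a background above 1.5 times the usual level.

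The distance between the summits of the 2 lists was measured at the 16 genes with both peaks. Its median was 39.5 bases (interval 4 to 121) beside 79 bases over 3469 coding genes, a value that the interval held. Without genes that share a divergent promoter the order turned, with 87 bases at 7 members beside 80. HSPE1 was among the 7, because the 5′ end of HSPD1 lies away from their shared promoter. Medians of 39 and 48.5 bases were found at the proteasome genes and at a list of 40 cochaperones, so a short distance was not particular to the chaperones. The distance was 0 at DNAJC21 and DNAJC16, 1 base at HSPE1 and 4 bases at HSPA1B and HSP90AA1, and it was at most 200 bases in 16 of 16 members (79.6% of coding genes and 91.7% of proteasome genes). The longest, 177 and 161 bases, were at HSPH1 and HSP90AB1. PTBP1 summits lay within 250 bases of the 5′ end of the gene at 22 of 23 members (95.7%, all coding genes 62.5%) and RUNX1 summits at 15 of 20 (75.0%, 60.3%). Measured against the canonical transcript, 18 of 23 PTBP1 summits (78.3%, 58.1 to 90.3) and 17 of 20 RUNX1 summits (85.0%, 64 to 94.8) were upstream of it, beside 73.7% and 71.5% over all coding genes. Of these, 16 and 16 were within 1000 bases. The others were those of HSP90AA1 (52675 and 52679 bases) and the PTBP1 summit of DNAJB4 (25646 bases), whose peaks lay at a distant 5′ end.

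**Figure D4:**
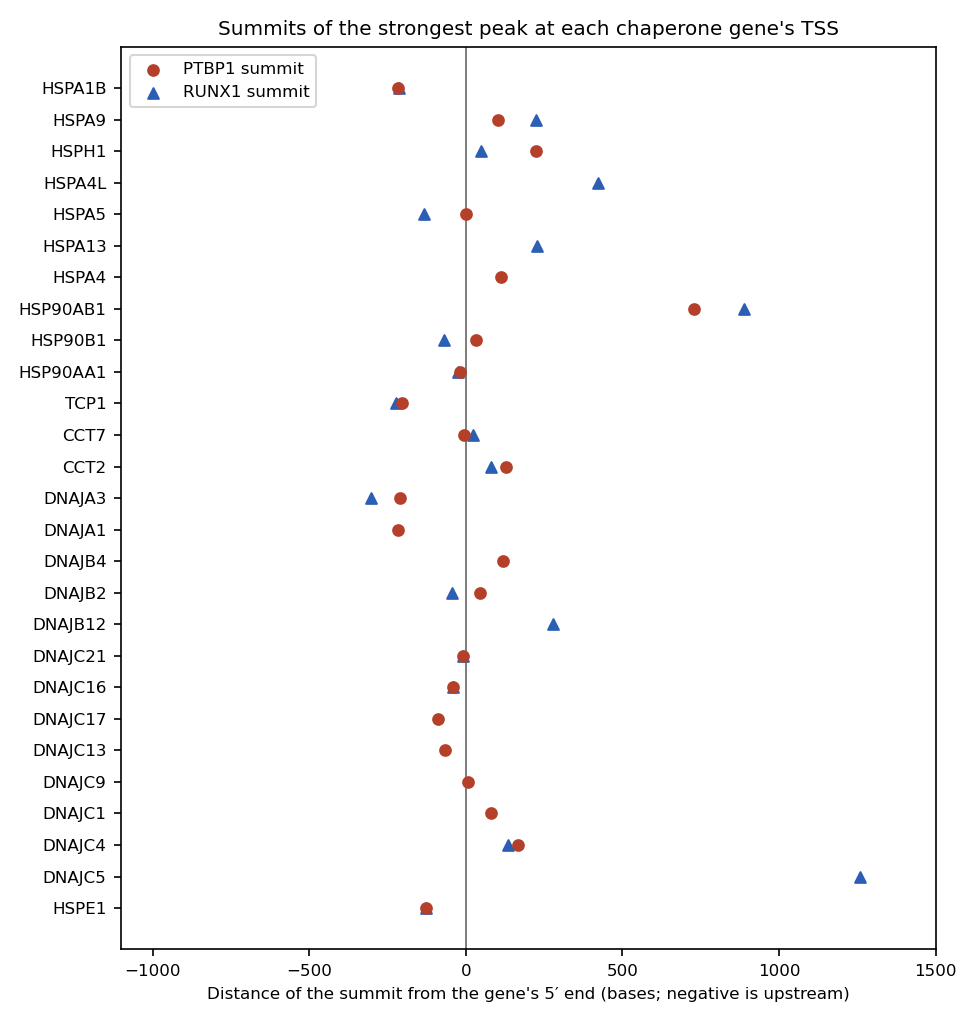
Position in bases of the summit of the strongest PTBP1 peak (red circles) and RUNX1 peak (blue triangles) relative to the 5′ end of each chaperone gene with a peak at the TSS, negative values being upstream. Summits of the 2 lists coincided at DNAJC21 and DNAJC16, and those of HSP90AB1 lay 727 and 888 bases downstream.

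Many members shared their start with another gene. An annotated gene on the opposite strand started within 1000 bases of the 5′ end of 33 members (47.1%), beside 26.6% of all coding genes. Among these members 42.4% (27.2 to 59.2) had a PTBP1 peak, beside 44.4% of all such coding genes, and among the other 37 members 24.3% (13.4 to 40.1) did, beside 19.8%. For RUNX1 the shares were 27.3% (15.1 to 44.2), beside 37.0%, and 29.7% (17.5 to 45.8), beside 15.6%. Only the last interval left out the share of the coding genes. Because only the 5′ ends of genes were compared, HSPD1 and HSPE1 were among the 37 despite their shared promoter. Peaks of both lists counted at HSPE1. The peak of a shared promoter cannot be assigned to either gene.

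Heat shock elements were sought in all promoters. In the 250 bases before to 50 bases from the canonical start, 23 of 70 members (32.9%) held GAANNTTC or TTCNNGAA, beside 11.0% of all coding genes. Among these 23 were HSPA1A, HSPA1B, HSPA1L, HSPA4L, HSPA6, HSPA8, HSPA9, HSPA14, HSPH1, HSP90AA1 and HSPD1. The rest were DNAJA1, DNAJA4, DNAJB1, DNAJB4, DNAJB6, DNAJB7, DNAJC6, DNAJC15, CCT4, CCT5, CCT6A and TCP1. A pair was present at 9 of the 30 members with a peak of either list at that start (30.0%) and at 14 of the 40 without (35.0%). HSPA1A and HSPA1L, both among the 14, were counted for the same pair, which lies between their starts. At the 5′ end of the gene in place of the canonical start the share was 12.9% beside 12.2%. The CCAAT box lay in 44.3% of canonical windows (36.1% of all coding genes), and 5 copies each were found at HSPA5 and HSP90B1, the major chaperones of the endoplasmic reticulum. The ratio of observed to expected CpG exceeded 0.6 at 30 of 30 members with a peak and 32 of 40 without (80.0%), beside 91.5% and 56.1% of coding genes.

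**Figure D5:**
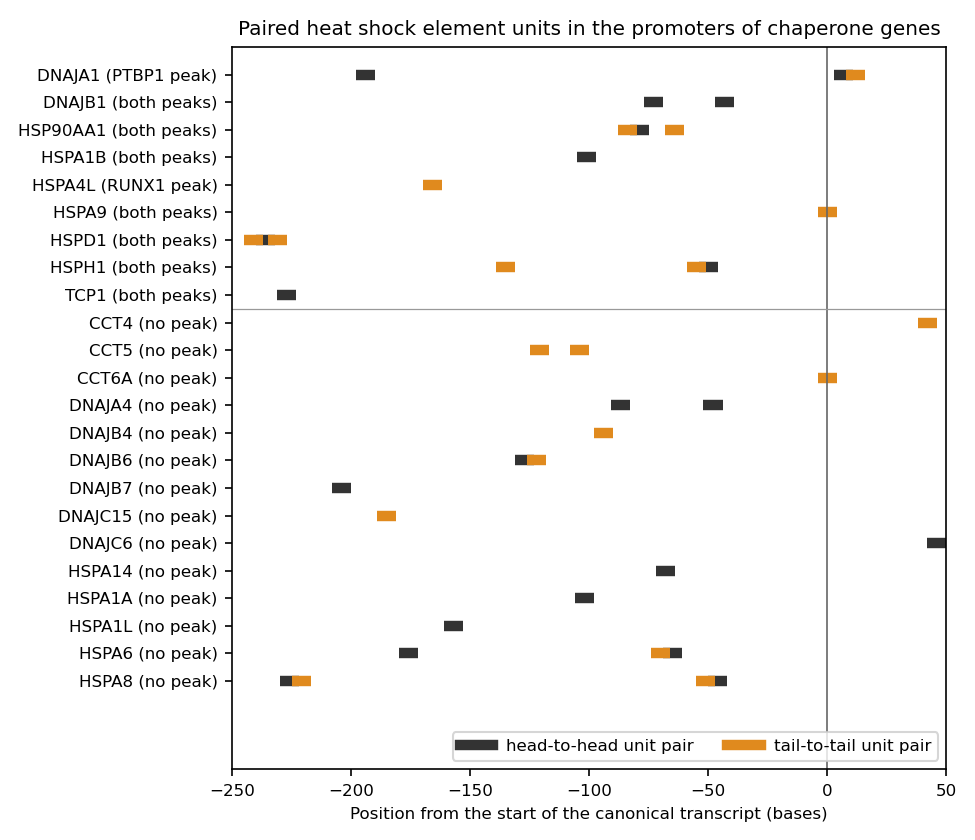
Positions of GAA units paired head to head (black) or tail to tail (orange) from 250 bases before to 50 bases after the canonical start of the 23 chaperone genes that held such a pair, those with a PTBP1 or RUNX1 peak at that start above the line. Of these genes 9 had a peak and 14 had none, among them HSPA8, HSPA6 and HSPA1A. The pair of HSPA1A is the same as that of HSPA1L.

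The DNA at the summits was searched for the same motifs. The RUNX motif TGTGGT or TGCGGT, on either strand, lay within 50 bases of 1 of the 25 RUNX1 summits of the members (4%), that of CCT3, beside 24.2% of all RUNX1 summits and 13.0% of those at coding TSSs. It lay at 3 of the 30 PTBP1 summits (10.0%, all PTBP1 summits 8.79%), those of CCT3, HSPA2 and HSPA4. Paired heat shock element units lay at 4 RUNX1 summits (16.0%, beside 3.23% of the list), those of DNAJB1, DNAJC5, HSP90AA1 and TCP1, and at 2 PTBP1 summits (6.67%, beside 2.36%), those of DNAJA1 and TCP1. Those of DNAJB1, HSP90AA1 and TCP1 are among the capitals printed above. The core CCGGAA, capitalized above for DNAJC21, lay at 1 PTBP1 summit (3.33%, beside 9.55% of those at coding TSSs), that of DNAJC21. It lay at 2 RUNX1 summits (8%, beside 9.64%), those of DNAJC21 and HSP90B1. In the windows at the canonical start it was present at 33.3% of members with a peak and 30% of those without. The shares of all coding genes with and without a peak were 31.1% and 18.9%. Runs of at least 12 pyrimidines, the DNA counterpart of what PTBP1 binds in RNA, lay at 13.3% of the members' PTBP1 summits and 14.7% of the whole list. A match is a description of letters, and none was tested.

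Genes that work with the chaperones were described from a separate list of 40 cochaperones, heat shock factors and other folding factors. PTBP1 peaks lay at the TSS of 22 of them (55.0%, 39.8 to 69.3), RUNX1 peaks at 18 (45.0%, 30.7 to 60.2) and both at 16 (40%, 26.3 to 55.4), beside 26.4%, 21.3% and 17.3% of all coding genes. All 3 intervals lay above those shares, and the difference was not tested. STIP1, which hands clients from HSP70 to HSP90, had fold enrichments of 68.6 and 54.1, and BAG6, a guardian of membrane proteins, had 49.4 and 44.4. PTGES3, the HSP90 cochaperone p23, had 30.8 and 18.0, and PDIA4 and HYOU1 of the endoplasmic reticulum had 36.6 and 23.3, and 28.5 and 21.1. HSF1, the main heat shock factor, had 23.8 and 10.5, whereas HSF2 had a PTBP1 peak only, of 11.0. HSF1 lies beside BOP1, BAG6 beside APOM and STIP1 beside noncoding genes without a symbol, all on the other strand. The peaks there cannot be assigned to HSF1, BAG6 or STIP1 alone. A divergent promoter was present at 42.5% of the 40 genes, beside 26.6% of all coding genes. Its part in the shares above was not tested. CHORDC1, HSPB1, CRYAB and FKBP4 were among the 16 with neither peak.

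The cell line was checked against marker genes by the counts of peaks alone, which do not measure expression. Peaks of both lists lay at the TSS of 2 of 10 myeloid leukemia markers, GFI1 and MYB, and at 0 of 6 markers of other lineages. The intervals of these shares, 5.67% to 51.0% and 0% to 39.0%, both held the 17.3% of all coding genes, so the markers did not tell the cell type from the peaks. Other members of the myeloid list, such as SPI1, MPO, FLT3 and LMO2, had peaks in the gene body only.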

How the data were processed

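CUT&Tag and CUT&RUN libraries of MOLM-13 cells were processed by the authors, who mapped the read pairs with Bowtie2 (hg38), discarded duplicates and alignments with a mapping quality of 30 or less, and ran MACS3 for peaks with a q-value threshold of 1e-07. The deposited lists, 1 for PTBP1 and 1 for RUNX1, carry no assay or replicate and were taken as CUT&Tag because the methods describe peak calling for it. Pooling of replicates is not given in the sources used here. The deposited values per peak are a score, the fold enrichment, a −log10 p-value and a −log10 q-value. The last 3 were used and the score was not.

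Fold enrichment and −log10 p-value were solved for a whole number of fragments at the summit and a background, to within 0.01 of the deposited −log10 p-value for 9370 of 9370 PTBP1 and 7687 of 7688 RUNX1 peaks. These fragments are the only measure of depth, as library totals were not analysed here. A peak was at a TSS when it came within 1000 bases of the 5′ end of a GENCODE 44 gene, and in a gene body when it overlapped the gene elsewhere. The strongest peak stood for each gene. Coordinates are 1-based.

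Members, families and lists were chosen with earlier results of these data known. All members of the small families were named. Of the DNAJ genes the rule named the 6 highest folds at the TSS in each list, those with a peak in 1 list only in its upper part, the 5 strongest gene-body peaks of each list and the genes that share a promoter. With 1 list per target no test was possible. Alternatives varied significance, the window, the start, shared promoters and repeated sequence. The procedures were tested on simulated data. Scripts ran in Python 3.11.15 (scipy 1.17.1, numpy 2.4.6, pysam 0.24.0, pandas 2.3.3, Biopython 1.88, matplotlib 3.10.9).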

Additional observations from a re-analysis of the deposited data

How the results depend on the processing

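No paired analysis was possible because each target had a single list and no result came from a test. Each of the 7 results was recomputed under 9 to 12 alternatives. The members' share with a PTBP1 peak ranged from 24.3% to 38.6%, with a RUNX1 peak from 18.6% to 32.9%, with both from 17.1% to 27.1%, and with a gene-body peak from 4.29% to 18.6%. A value left its 95% interval in 2 cases. Keeping only peaks with a −log10 q-value of at least 20 lowered the RUNX1 share to 18.6% (all coding genes 13.5%), and counting the start of any annotated transcript as a TSS lowered the gene-body share to 4.29% (11.4%), since such peaks then count as TSS peaks. The members' share lay above that of all coding genes under all 34 alternatives for PTBP1, RUNX1 and both, and below it under all 9 for gene-body peaks. Median fold enrichment ranged from 19.2 to 24.4 (PTBP1) and from 18.0 to 27.1 (RUNX1), and median summit distance from 22.5 to 87 bases. The 87 bases, without genes that share a divergent promoter (7 members, HSPE1 among them), lay above the 80 bases of all coding genes. The reported 39.5 lay below their 79, so the order turned. The interval of a share at the TSS lay above all coding genes in 3 of the 34 alternatives, 2 for RUNX1 and 1 for both. HSPD1 and HSPE1, which share 1 promoter, both entered the 2 for RUNX1. Leaving out HSPA1A, HSPA1B, HSPA1L and HSPA6, whose windows are over 10% repeated, gave 33.3% for PTBP1 and 28.8% for RUNX1. With 70 genes, differences of a few genes cannot be resolved, and a peak that is absent from a list may lie below the calling threshold.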
